A study of Mus musculus with 12 samples.

Results

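The Dlk1-Meg3 domain is a cluster of imprinted genes on distal mouse chromosome 12, and 5 of the 34174 genes in the deposited table stand for it here: Dlk1, Meg3, AC152063.2, Dio3 and Begain. They were picked by gene symbol, with the difference between the groups already known, so their values are given as a description and no test is attached to them. In Dlk1, Meg3, AC152063.2 and Begain every c-kitCre-labelled culture lay above every wild-type-labelled culture, with group means that went from under 16 to between 63.3 and 2851 scaled reads. Dio3, at the far end of the domain, was between 1.31 and 3.80 scaled reads in all 6 cultures, and its groups overlapped. AC152063.2 carries the gene ID that the GENCODE M21 annotation names Rian, and it is called Rian below.

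The study sequenced ribosome-depleted total RNA of cardiac stem cells, a cell population cultured from the heart, from C57BL/6 mice. Wild-type cells were compared with cells of c-kitCre mice, a knock-in that places the Cre recombinase at Kit, the gene of the stem cell factor receptor. All cultures grew on gelatin-coated dishes in medium with 10% ESQ-FBS at 21% oxygen, and no other treatment, allele, sex or age is given in the labels. Each group has 3 cultures with 2 libraries apiece, 12 libraries in all, and the table holds 1 value per culture, so n = 3 per group throughout. Whether cultures of a group came from different mice is not stated, so the spread and the p-values are those between cultures and may be technical.

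Values are in scaled reads. A scaled read is a raw value times the factor per culture that the authors' normalization implies. That normalization raised low values to a floor of 4.41 scaled reads before taking log2, so a log2 difference understates the contrast of a gene that sits at the floor in a group. Log2 differences are the mean of the c-kitCre-labelled cultures minus the mean of the wild-type-labelled cultures. Summed raw values ran from 22371439, in c-kitCre culture 2, to 35963488 per culture. Kit itself stood at 3.38, 1.55 and 1.17 scaled reads in the wild-type-labelled cultures and at 1732, 1738 and 1603 in the c-kitCre-labelled cultures, which goes against a knock-in that interrupts Kit, so groups are named by their labels, on which all directions given here depend. Xist, the non-coding RNA of X inactivation, was at 30654, 36447 and 39035 in the wild-type-labelled cultures and at 29.8, 64.6 and 50.9 in the c-kitCre-labelled cultures, and none of 4 Y-linked genes passed the test, though 1 did without c-kitCre culture 1 or without c-kitCre culture 2. The part that sex or culture origin has in the values below was not tested. Of the surface markers used for such cells, Ly6a (Sca-1) fell from 3002 ± 272 to 729 ± 45.8 scaled reads (SD, n = 3; limma, adjusted p = 0.000146) and was present in both groups. Abcg2 was at 860 ± 91.9 and 779 ± 83.3, Pecam1 (CD31) had group means of 31.1 and 43.2, and neither passed the test. Ptprc (CD45) was under 3 scaled reads in every culture.

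Imprinted genes are read mainly from the copy inherited from a given parent. In this domain the protein-coding genes Dlk1, Rtl1 and Dio3 are read mainly from the paternal chromosome, and the long non-coding RNAs Meg3, Rian and Mirg, with the small RNAs they host, from the maternal one. A methylated intergenic control region between Dlk1 and Meg3 sets that pattern, and the long RNAs are widely thought to belong to a common transcription unit that runs from Meg3 through Rian to Mirg. Dlk1 is best known as a transmembrane protein of preadipocytes, and the domain is active in embryonic and mesenchymal tissues. The table does not separate parental copies, so allele-specific expression was not analysed here.

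The promoters of Dlk1, Meg3 and Dio3 are shown because these genes lie apart along the domain, with Dio3 at its far end, and had unlike levels in the cultures. Each window runs from 250 bases before to 50 bases after a RefSeq transcript start on build GRCm38.p6, plus strand, at chr12:109452573-109452872, chr12:109540746-109541045 and chr12:110278980-110279279. Capitals mark the letters of a CCAAT box, of a TATA box (TATAAA) and of a cyclic AMP response element (TGACGTCA), each searched on both strands.
Dlk1 promoter: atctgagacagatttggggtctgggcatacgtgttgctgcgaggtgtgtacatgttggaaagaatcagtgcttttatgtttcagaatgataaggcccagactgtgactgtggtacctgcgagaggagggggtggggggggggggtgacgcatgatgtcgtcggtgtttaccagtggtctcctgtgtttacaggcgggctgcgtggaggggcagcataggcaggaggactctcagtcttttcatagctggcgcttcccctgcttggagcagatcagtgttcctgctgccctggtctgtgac
Meg3 promoter: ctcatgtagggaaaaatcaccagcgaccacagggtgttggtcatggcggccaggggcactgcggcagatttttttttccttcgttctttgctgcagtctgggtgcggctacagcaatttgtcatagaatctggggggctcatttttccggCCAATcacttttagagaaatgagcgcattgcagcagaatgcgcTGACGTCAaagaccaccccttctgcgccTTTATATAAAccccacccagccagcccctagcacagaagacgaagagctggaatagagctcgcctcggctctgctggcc
Dio3 promoter: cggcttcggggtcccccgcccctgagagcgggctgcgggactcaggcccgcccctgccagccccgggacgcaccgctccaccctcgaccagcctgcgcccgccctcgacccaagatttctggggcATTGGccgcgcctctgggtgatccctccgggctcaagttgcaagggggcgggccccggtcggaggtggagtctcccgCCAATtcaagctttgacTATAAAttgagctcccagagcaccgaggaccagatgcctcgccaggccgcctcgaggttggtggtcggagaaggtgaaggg

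The Meg3 window holds CCAAT starting at position -100, the palindrome TGACGTCA, the cyclic AMP response element, at -57, and TATAAA on both strands in an overlapping pair that starts at -29. The Dio3 window holds CCAAT on the other strand at -125 and on the same strand at -48, and TATAAA at -31. None of these letters occurs in the Dlk1 window. Among 32851 RefSeq promoter windows of this length, TGACGTCA occurs in 1.79%, TATAAA in 13.6% and CCAAT in 37.4%. CpG pairs number 9 in the Dlk1 window, 13 in that of Meg3 and 25 in that of Dio3, against a median of 7 over all windows.

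The small RNAs shown next are those of the 4 miRNA hairpin genes with the highest mean level in the c-kitCre-labelled cultures, among hairpins at 0 in every wild-type-labelled culture and above 0 in every c-kitCre-labelled culture. The mature miRNAs of the domain that share a seed with them are added. Capitals mark the seed, bases 2 to 8, which guides target choice, and the sequences are from RefSeq on build GRCm38.p6, chromosome 12, plus strand.
mmu-miR-3070-5p: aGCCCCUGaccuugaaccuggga
mmu-miR-3070-3p: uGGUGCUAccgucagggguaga
mmu-miR-3070-2-3p: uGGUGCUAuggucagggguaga
mmu-miR-370-5p: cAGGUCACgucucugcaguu
mmu-miR-370-3p: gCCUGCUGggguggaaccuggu
mmu-miR-1197-5p: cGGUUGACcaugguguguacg
mmu-miR-1197-3p: uAGGACACauggucuacuucu
mmu-miR-758-5p: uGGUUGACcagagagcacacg
mmu-miR-1193-3p: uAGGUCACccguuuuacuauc
mmu-miR-666-5p: aGCGGGCAcagcugugagagcc
mmu-miR-666-3p: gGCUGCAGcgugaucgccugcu

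The seed AGGUCAC is shared by miR-370-5p and miR-1193-3p, GGUUGAC by miR-1197-5p and miR-758-5p, and GGUGCUA by miR-3070-3p and miR-3070-2-3p. In all, 9 seeds are each shared by more than 1 of the 113 mature miRNA names that RefSeq places in the region.

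The domain also encodes small nucleolar RNAs, of the class that guides methylation of other RNAs and carries a C box near the start and a D box near the end. The 3 with the highest mean level in the c-kitCre-labelled cultures are printed from their GENCODE M21 transcripts, on chromosome 12, plus strand, with TGATGA, a C box core, and the last CTGA, the D box, in capitals.
Gm23474: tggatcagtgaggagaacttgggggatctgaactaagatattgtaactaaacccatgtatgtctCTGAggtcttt
Gm24895: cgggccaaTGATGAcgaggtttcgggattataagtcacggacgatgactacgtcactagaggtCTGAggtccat
Gm24564: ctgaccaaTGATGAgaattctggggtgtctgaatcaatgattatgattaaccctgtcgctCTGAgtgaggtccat

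Gm23474 has no TGATGA. Of the 21 snoRNA genes with a row, 16 have TGATGA within the first 15 bases, 14 have CTGA within the last 15 bases and 11 have both, with lengths of 68 to 82 bases.

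Dlk1 (ENSMUSG00000040856, chr12:109452823-109463336, plus strand) encodes a Notch-like transmembrane protein, also called Pref-1, that restrains the maturation of fat cells. It was at 2.80, 4.74 and 2.36 scaled reads in the wild-type-labelled cultures and at 130, 274 and 170 in the c-kitCre-labelled cultures. The groups did not overlap, and c-kitCre culture 2 was the highest. Group means were 3.30 ± 1.27 and 191 ± 74.3 (SD, n = 3), a log2 difference of 5.30. Because 2 of the wild-type-labelled cultures were at the floor, that difference rests partly on the floor.

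Rtl1 (chr12:109589193-109600330, minus strand), a retrotransposon-derived gene required in the placenta, is no member of the 5 and was tested. It was at 4.36, 2.45 and 1.99 scaled reads in the wild-type-labelled cultures and at 191, 105 and 297 in the c-kitCre-labelled cultures, without overlap. It rose by 5.34 ± 0.43 on the log2 scale (SE; limma, adjusted p = 0.000381), higher in 3 of 3 cultures. Of the wild-type-labelled cultures 2 were at the floor and the other was close to it. The difference therefore rests partly on the floor, and Rtl1 had almost no room to fall. Its exons overlap those of miRNA genes on the opposite strand, among them Mir127, Mir433 and Mir434, and whether counting used strand is not given in the sources used here. Reads from Rtl1 and from RNA of the opposite strand can therefore not be told apart.

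Dio3 (ENSMUSG00000075707, chr12:110279068-110281097, plus strand) encodes the deiodinase that inactivates thyroid hormone. It was at 3.38, 2.19 and 1.31 scaled reads in the wild-type-labelled cultures and at 3.80, 2.01 and 2.59 in the c-kitCre-labelled cultures. The groups overlapped and every culture was below the floor. The means were 2.29 ± 1.04 and 2.80 ± 0.915 (SD, n = 3), and the log2 difference of 0.06 has little left to measure at this depth. The direction is not stable: centring the samples on the median of all genes turned the log2 difference to -0.29.

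Meg3 (ENSMUSG00000021268, chr12:109541001-109571726, plus strand) is the first of the long non-coding RNAs read from the maternal copy. It was at 19.5, 11.4 and 16.2 scaled reads in the wild-type-labelled cultures and at 1493, 2309 and 1694 in the c-kitCre-labelled cultures. No culture of either group was at the floor, and the groups did not overlap. Group means were 15.7 ± 4.08 and 1832 ± 425 (SD, n = 3), a log2 difference of 6.88.

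Rian (row AC152063.2, ENSMUSG00000097451, chr12:109603940-109661716, plus strand), which hosts the snoRNAs, was at 7.21, 10.9 and 11.1 scaled reads in the wild-type-labelled cultures. In the c-kitCre-labelled cultures it was at 2629, 3182 and 2743. The groups did not overlap, and its log2 difference of 8.16 was the largest among the 5 genes. The means were 9.72 ± 2.17 and 2851 ± 292 (SD, n = 3).

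Mirg (ENSMUSG00000097391, chr12:109729764-109749460, plus strand), the host of the last miRNA cluster, stands in the table under the symbol mmu-mir-410 and was matched by its gene ID. It was at 13.5, 8.85 and 10.2 scaled reads in the wild-type-labelled cultures and at 133, 88.9 and 172 in the c-kitCre-labelled cultures. The groups did not overlap. It rose by 3.57 ± 0.37 on the log2 scale (SE; limma, adjusted p = 0.000908), higher in 3 of 3 cultures.

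Gm26906 (row AC152063.3, chr12:109568628-109571723, minus strand) was at 0.488, 0.149 and 0 scaled reads in the wild-type-labelled cultures and at 55.7, 90.8 and 63.8 in the c-kitCre-labelled cultures. The groups did not overlap, and the log2 difference was 3.96. Because the row passed the filter on low values only through the c-kitCre-labelled cultures, its test is not read as a result. All 1228 of its exon bases lie within Meg3 exons on the opposite strand, so its reads cannot be told apart from those of Meg3.

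Begain (ENSMUSG00000040867, chr12:109032187-109068217, minus strand) encodes a protein found with the guanylate kinase of neuronal synapses, and it lies at the near border of the domain. It was at 0.507, 2.84 and 1.91 scaled reads in the wild-type-labelled cultures and at 51.6, 72.2 and 66.1 in the c-kitCre-labelled cultures. All wild-type-labelled cultures were at the floor and none of the c-kitCre-labelled cultures was. The means were 1.75 ± 1.18 and 63.3 ± 10.6 (SD, n = 3). The log2 difference of 3.83 is set partly by the floor: it was 5.36 on log2(scaled reads + 0.1) and 3.34 on log2(scaled reads + 5).

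**Figure D1:**
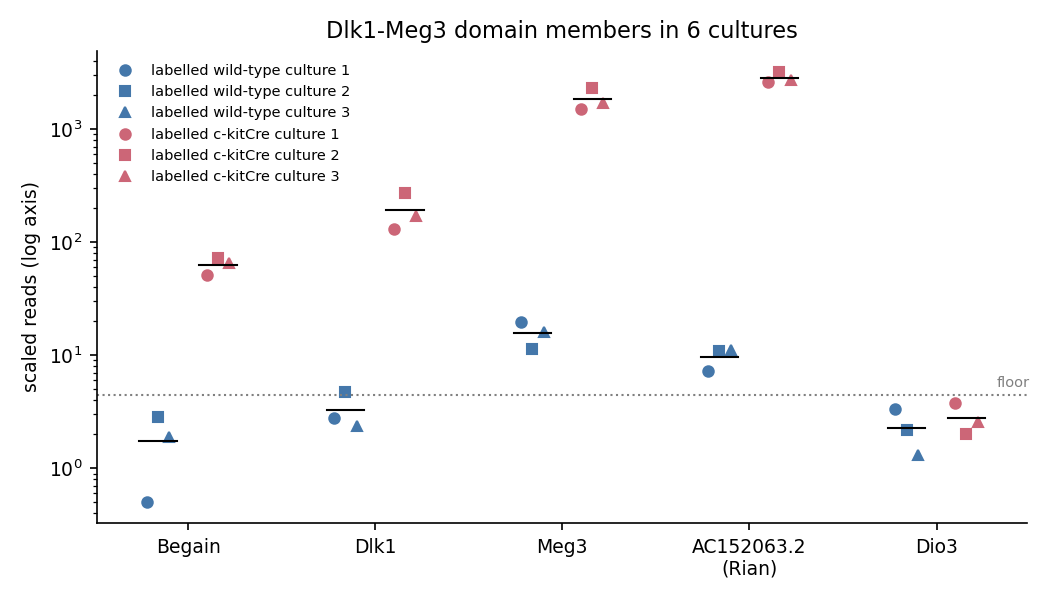
Scaled reads of the 5 genes on a log axis, 1 point per culture, with a bar at the mean of each group of 3 and a dotted line at the floor of 4.41 scaled reads. Meg3 and Rian reach 1493 to 3182 in the c-kitCre-labelled cultures, while Dio3 stays under the floor in both groups.

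Thus 4 of the 5 genes had all c-kitCre-labelled cultures above all wild-type-labelled ones, an order seen in 23.3% of the 24150 genes tested, with the opposite order in 26.3%. That count follows from how the genes were picked and nothing is read from it. In the authors' deposited table, the fold by which the c-kitCre group was higher was 14.2 for Begain, 39.4 for Dlk1, 118 for Meg3 and 285 for Rian. The authors' deposited table also gives folds of 40.4 for Rtl1, 11.9 for Mirg and 15.5 for Gm26906, and Dio3 is not among its 4528 genes. As these are bulk cultures, fewer cells that express the domain and less of its RNA per cell cannot be told apart.

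Genes can be compared with each other only per length, so levels were also divided by exon length in kb. In the c-kitCre-labelled cultures, Rian had the highest level at 156 scaled reads per kb of exon, with cultures between 144 and 175. Meg3 followed at 101 per kb, with cultures between 82.5 and 128, below every culture of Rian. Gm26906 came next at 57.1 per kb, and its lowest culture, at 45.4, lay under the highest of Dlk1.

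Dlk1 at 33.8 and Rtl1 at 31.1 scaled reads per kb were neighbours that did not differ beyond their spread, with cultures from 22.9 to 48.4 and from 16.5 to 46.7. Mirg at 18.0 and Begain at 14.4 per kb also overlapped each other, as did Mirg and Rtl1. Dio3 was the lowest at 1.38 per kb. In the wild-type-labelled cultures the same 8 genes were all low, from 0.173 per kb for Gm26906 to 1.48 per kb for Mirg, and Meg3 and Rian were at 0.868 and 0.533 per kb.

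**Figure D2:**
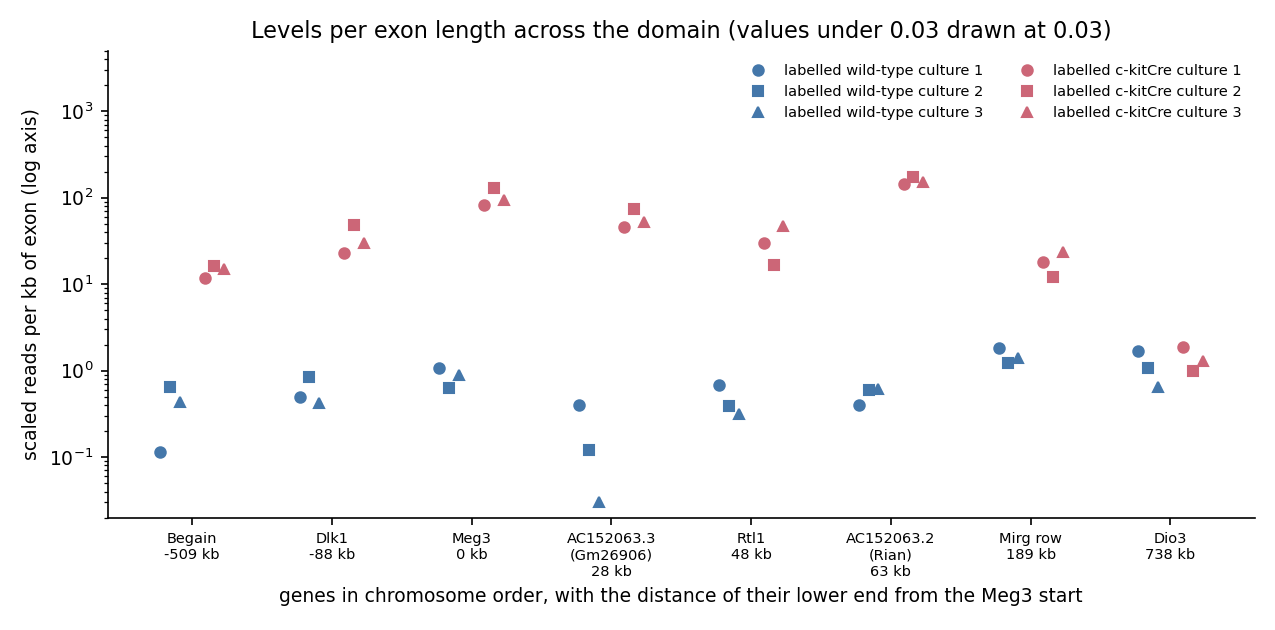
Scaled reads per kb of exon on a log axis for 8 genes in chromosome order, 1 point per culture. The c-kitCre-labelled cultures lie above the wild-type-labelled cultures in all genes but Dio3, and peak at Rian with 156 scaled reads per kb on average.

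From the near end of Begain to the far end of Dio3 the region spans 1249 kb and holds 122 annotated genes, of which 80 have a row. Of the 75 rows that are no member of the 5, 12 passed the filter on low values: Rtl1, Mirg, Gm26906 and 9 snoRNA rows. Gm26906 and the snoRNA rows passed only through the c-kitCre-labelled cultures and could not fall, and Rtl1 had almost no room to fall. No count of calls is therefore given for the 12 rows. Between the genes described, 384.6 kb separate Begain from Dlk1 and 77.7 kb separate Dlk1 from Meg3. Dio3, whose groups overlapped, lies 529.6 kb beyond Mirg.

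The small RNA genes had very low values, and the libraries were not made for small RNA. A read over a hairpin or a snoRNA can come from the long host RNA, so mature small RNA and host cannot be told apart. The 21 snoRNA rows together summed to 0, 0 and 0.0248 scaled reads in the wild-type-labelled cultures and to 57.6, 80.7 and 66.6 in the c-kitCre-labelled cultures. The groups did not overlap. Gm23474, at 0 in all wild-type-labelled cultures, was at 6.87, 13.1 and 12.2 scaled reads in the c-kitCre-labelled cultures. AF357425, also at 0 in all wild-type-labelled cultures, was at 4.15, 5.46 and 6.43.

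The snoRNA genes inside Rian and those beyond its end differed in 1 culture. The 11 rows inside Rian were above 0 in every c-kitCre-labelled culture, with sums of 43.3, 78.4 and 54.7 scaled reads, highest in culture 2. The 10 rows beyond Rian summed to 14.3, 2.24 and 11.9, lowest in culture 2, where only 2 of the 10 rows were above 0 against all 10 in cultures 1 and 3.

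The 51 miRNA hairpin rows, of 69 annotated hairpins, summed to 0.976, 1.12 and 0 scaled reads in the wild-type-labelled cultures and to 49.1, 22.9 and 60.2 in the c-kitCre-labelled cultures. Again the groups did not overlap, and 48 of the 51 rows were at 0 in every wild-type-labelled culture. None had enough signal to be tested. Among the hairpins whose sequences are printed above, Mir370 was at 1.49, 2.72 and 2.42 scaled reads in the c-kitCre-labelled cultures, and Mir666 at 2.57, 1.24 and 2.91. Mir1193, which shares a seed with miR-370-5p, was at 1.21, 0 and 3.18. The 33 rows beyond Rian summed to 35.2, 10.5 and 42.0 scaled reads, and the 15 rows from Meg3 to the end of Rian to 13.9, 12.5 and 18.2.

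**Figure D3:**
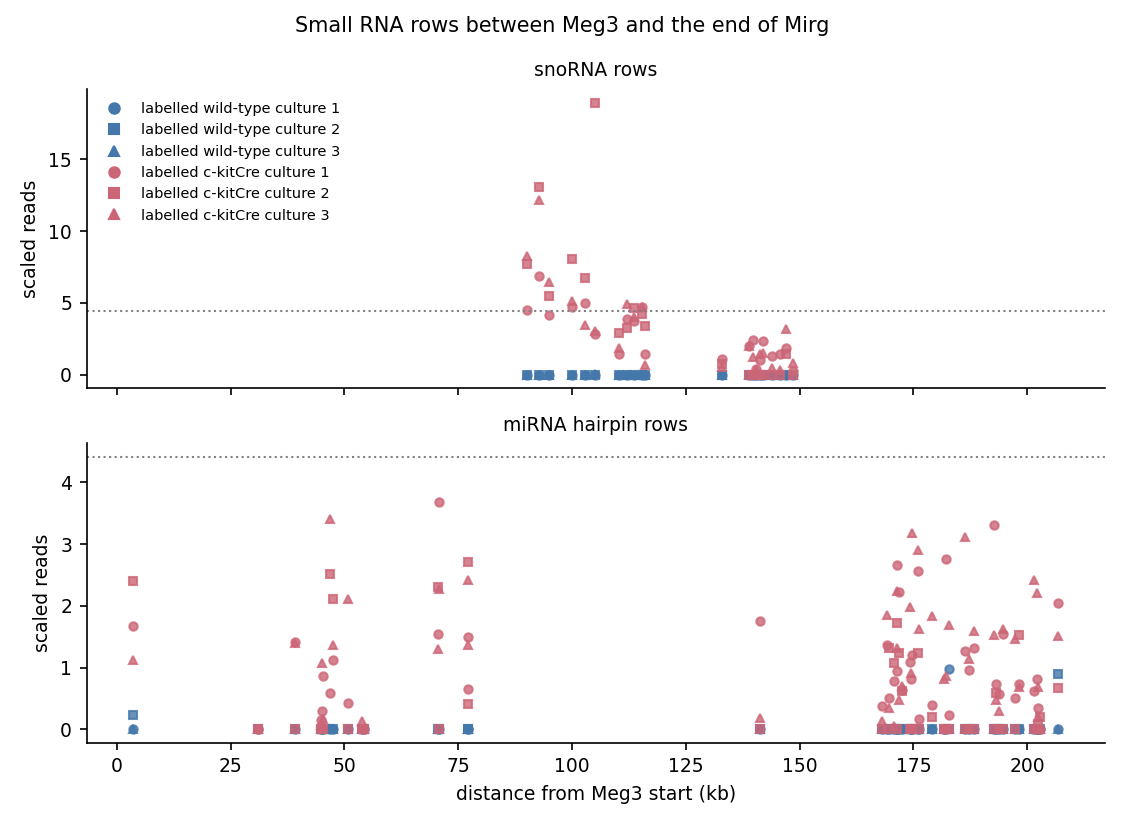
Scaled reads of snoRNA rows (upper panel) and miRNA hairpin rows (lower panel) against distance from the Meg3 start, 1 point per culture and row, with a dotted line at the floor of 4.41. Rows of the wild-type-labelled cultures lie at or near 0, and the highest snoRNA rows are near 100 kb, inside Rian.

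The same culture stood apart among the longer genes. The ratio of c-kitCre culture 2 to the mean of the other c-kitCre cultures was 1.83 for Dlk1, 1.45 for Meg3, 1.23 for Begain and 1.18 for Rian. It was 0.431 for Rtl1 and 0.583 for Mirg. The genes therefore did not keep 1 ratio across the cultures of the group. Over all genes tested the median of this ratio was 1.01, with 0.200 and 3.45 as its 5th and 95th percentiles, so each of these values lies within the common range. Culture 2 also has the lowest summed raw value, and the part of depth in the ratios was not tested.

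Genes next to the domain on chromosome 12 were examined to see where the differences stop. Of 21 flanking genes, 2 rose and 4 fell, 28.6% in all; over all genes tested, 16.2% rose and 19.3% fell (35.5% in all). Their median log2 difference was -0.10 against 0.04 over all genes tested. On the Dio3 side, the 2 that rose became 1 without wild-type culture 2 or 3 or c-kitCre culture 1 or 3, and the 3 that fell became 1 without any 1 culture other than c-kitCre culture 2. In 15 of the 21 the log2 difference was under 1 in size. Rcor1, a subunit of a transcriptional repressor complex, rose by 1.44 ± 0.27 (SE; limma, adjusted p = 0.00794), from 1783 ± 492 to 4786 ± 1059 scaled reads (SD, n = 3).

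Wars, a tryptophanyl-tRNA synthetase on the Begain side, was at 5646, 5672 and 5894 scaled reads in the wild-type-labelled cultures and at 2223, 777 and 1853 in the c-kitCre-labelled cultures. The groups did not overlap, and it fell by 1.96 on the log2 scale (SE 0.39; limma, adjusted p = 0.00998). Traf3, an adaptor of tumour necrosis factor receptors, fell by 1.26 (SE 0.22; limma, adjusted p = 0.00623). Ankrd9 rose by 1.13, and Cinp and Wdr20 fell by 0.69 and 0.43, and these 3 calls were lost in several of the alternative settings. Wdr25, the annotated neighbour of Begain in the list, had a log2 difference of -0.36 (limma, adjusted p = 0.243), and Ppp2r5c, the neighbour of Dio3, one of 0.42 (limma, adjusted p = 0.0887, and 0.00867 without wild-type culture 1).

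**Figure D4:**
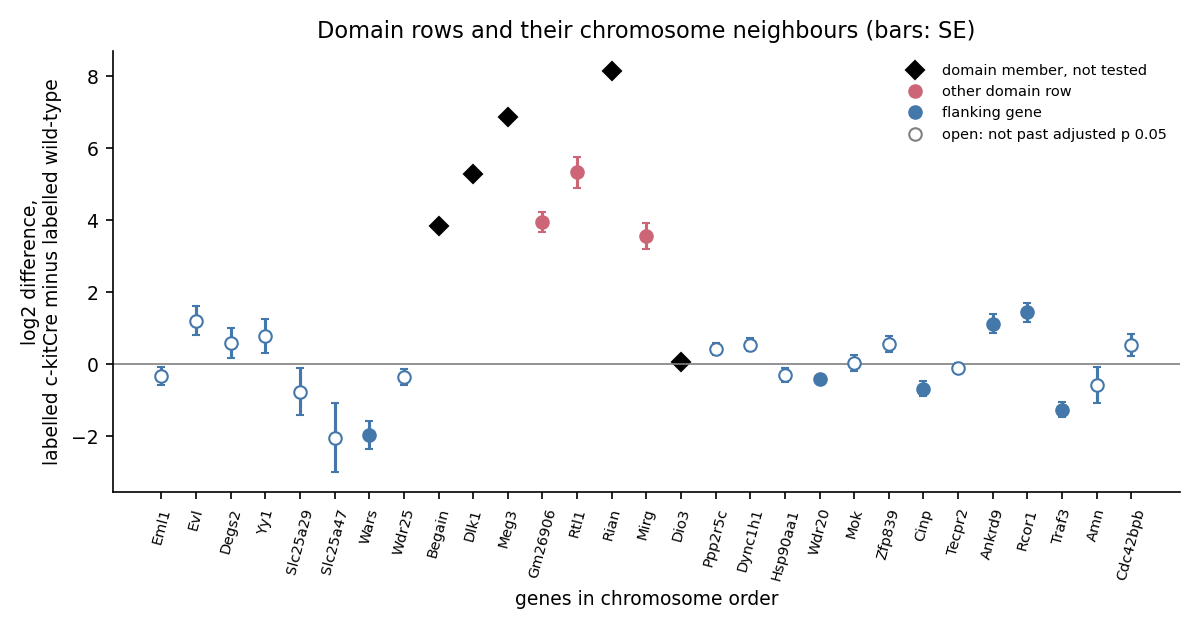
Log2 difference of 8 domain genes and 21 flanking genes in chromosome order, with SE bars for tested genes and open symbols for genes not past an adjusted p of 0.05 (the test of Gm26906 is not read as a result). Begain to Mirg lie between 3.57 and 8.16, and the flanking genes between -2.05 and 1.44.

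Dlk1 is a relative of the Notch ligands and has been described to act on Notch signalling and through fibronectin, so those genes were examined beside it. Of 20 tested genes of the Notch list, 6 rose and 2 fell, 40% in all, with a median log2 difference of 0.32. Over all genes tested, 16.2% rose and 19.3% fell, 35.5% in all, and the lists below are to be read against those shares. Jag1, a canonical ligand of Notch receptors, fell from 2693 ± 330 to 112 ± 11.2 scaled reads (SD, n = 3; limma, adjusted p = 5.1e-05), opposite to Dlk1. The receptor Notch4 fell by 2.89 on the log2 scale (SE 0.47; limma, adjusted p = 0.0048), and Notch3 rose by 1.73 ± 0.32 on the log2 scale (SE; limma, adjusted p = 0.00806). Fn1, the fibronectin gene, rose by 1.32 on the log2 scale (limma, adjusted p = 0.017). The call of Fn1 was lost in 6 alternative settings, and that of Nrarp, also counted among the rises, in 10. Nrarp was under the floor in scaled reads in every wild-type-labelled culture, so it had little room to fall. The target gene Hey1 rose by 3.04 from levels near the floor. Hey2, another target, was at 0.976, 1.55 and 0 scaled reads in the wild-type-labelled cultures and at 22.3, 33.8 and 26.7 in the c-kitCre-labelled cultures. Hey2 is counted among the rises, but it passed the filter on low values only through the c-kitCre-labelled cultures. It could not fall, so its test is not read as a result. Hes1 was at 449, 432 and 431 scaled reads in the wild-type-labelled cultures and at 510, 94.8 and 628 in the c-kitCre-labelled cultures. Its log2 difference was -0.49 (limma, adjusted p = 0.619) and, without c-kitCre culture 2, 0.37.

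Dlk1 is known to hold back fat cell formation by way of Sox9. Of 13 tested adipogenic and skeletal genes, 6 rose and 0 fell (1 fell without wild-type culture 1), 46.2% in all, with a median log2 difference of 1.00. Over all genes tested, 35.5% were called and 16.2% rose. Cebpd, an early factor of fat cell formation, rose by 5.96 ± 0.38 (SE; limma, adjusted p = 0.000191). Sox9 rose from 453 ± 63.8 to 1407 ± 145 scaled reads (SD, n = 3; limma, adjusted p = 0.000672). Pparg, the master regulator of fat cells, was at 7.87, 0.894 and 1.10 scaled reads in the wild-type-labelled cultures and at 106, 56.8 and 83.1 in the c-kitCre-labelled cultures. Fabp4, a marker of mature fat cells, had a log2 difference of -0.38 (limma, adjusted p = 0.592), and Adipoq stayed under 2 scaled reads in every culture.

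Dio3 works against the activating deiodinases Dio1 and Dio2. Dio1 was at 321, 266 and 256 scaled reads in the wild-type-labelled cultures and at 0.104, 0 and 2.11 in the c-kitCre-labelled cultures. The groups did not overlap, and the log2 difference was -5.98. Dio1 is counted among the falls below, but it passed the filter on low values only through the wild-type-labelled cultures. It could not rise, so its test is not read as a result. Dio2 was low in both groups, with a log2 difference of 0.03 (limma, adjusted p = 0.968) whose sign changed when single cultures were left out, from -0.54 to 0.43. Of 23 tested genes of thyroid hormone handling, 3 rose and 9 fell, 52.2% in all, with a median of -0.05. Over all genes tested, 35.5% were called and 19.3% fell. The receptor genes moved in opposite directions, Thrb falling by 6.41 and Thra rising by 2.36 on the log2 scale (limma, adjusted p = 0.000269 and 0.000181). Secisbp2 and Sephs2, needed to make selenoproteins such as the deiodinases, fell by 1.59 and 1.07.

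Imprinted genes of other chromosomes were also listed. Of 27 tested, 9 rose and 3 fell (5 without c-kitCre culture 2), 44.4% in all, with a median log2 difference of 0.33. Over all genes tested, 35.5% were called and 16.2% rose. Cdkn1c, counted among the rises, passed the filter on low values only through the c-kitCre-labelled cultures and could not fall. Its rise is therefore not read as a result. Grb10, a growth-restraining adaptor, rose from 7.43 ± 1.92 to 8198 ± 617 scaled reads (SD, n = 3; limma, adjusted p = 3.2e-05). Peg3 and Plagl1 rose by 6.75 and 6.69 on the log2 scale. Plagl1 was under the floor in scaled reads in every wild-type-labelled culture, and Peg3 in wild-type cultures 2 and 3. H19, also counted among the rises, had a log2 difference of 5.36. All its wild-type-labelled cultures were at the floor and it could not fall, so its rise is not read as a result. Igf2, the neighbour of H19, had a log2 difference of -0.93 (limma, adjusted p = 0.174, and 0.0423 without c-kitCre culture 2). Impact fell by 1.37. Peg3 was also the gene whose profile over the 6 cultures was nearest to that of Meg3, and Gria3 was also among the nearest, at Euclidean distances of 0.416 and 0.614 between centred log2 values among 16175 candidate genes. This distance depends on the group difference, which was 6.88 for Meg3, 6.75 for Peg3 and 6.90 for Gria3. Shared regulation was not tested.

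The genes with the profiles nearest to Dlk1 by the same measure were Lass1, Adam12 and Podxl2, at distances of 0.225, 0.243 and 0.337. Their log2 differences of 5.35, 5.36 and 5.28 were close to the 5.30 of Dlk1, on which the distance depends. Lass1 was at 3.36, 5.22 and 3.16 scaled reads in the wild-type-labelled cultures and at 139, 268 and 199 in the c-kitCre-labelled cultures. For Dio3 they were Phf11, Dnaja1-ps and Ugt2b5, all low genes near the floor, so likeness there says only that values are low.

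Among 16 tested genes that write, erase or guard DNA methylation at imprints, 4 rose and 3 fell, 43.8% in all, with a median of -0.11, and 1 fell without wild-type culture 2 or 3 or c-kitCre culture 3. The share called over all genes tested was 35.5%. Tet1, which oxidizes methylated cytosine, was at 4.94, 11.6 and 10.2 scaled reads in the wild-type-labelled cultures and at 791, 517 and 871 in the c-kitCre-labelled cultures, a rise of 6.39 ± 0.42 (SE; limma, adjusted p = 0.000202). Aff3, which has been reported to bind the control region of this domain, rose by 4.07 and Dnmt3l by 2.55. The de novo methyltransferase Dnmt3b fell by 2.16, and Zfp57, a guard of imprints, fell by 0.58 (SE 0.13; limma, adjusted p = 0.0145), a call that was lost under several alternatives. Meg3 RNA has been described to bind Polycomb repressive complex 2. Of 11 tested subunits, 2 rose and 2 fell, 36.4% in all against 35.5% of all genes tested, with a median of -0.06. Those counts depend on single cultures: with 1 left out, the number that fell ran from 0, without wild-type culture 2, to 4, without c-kitCre culture 2, and it was 1 without wild-type culture 3 or c-kitCre culture 1 or 3. The number that rose became 1 without wild-type culture 2 or 3 or c-kitCre culture 1 or 2. The call of Rbbp7 was lost in 10 alternative settings and that of Ezh1 in 6. Jarid2 rose by 2.45, and Ezh2, the catalytic subunit, had a log2 difference of 0.01 (limma, adjusted p = 0.966).

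**Figure D5:**
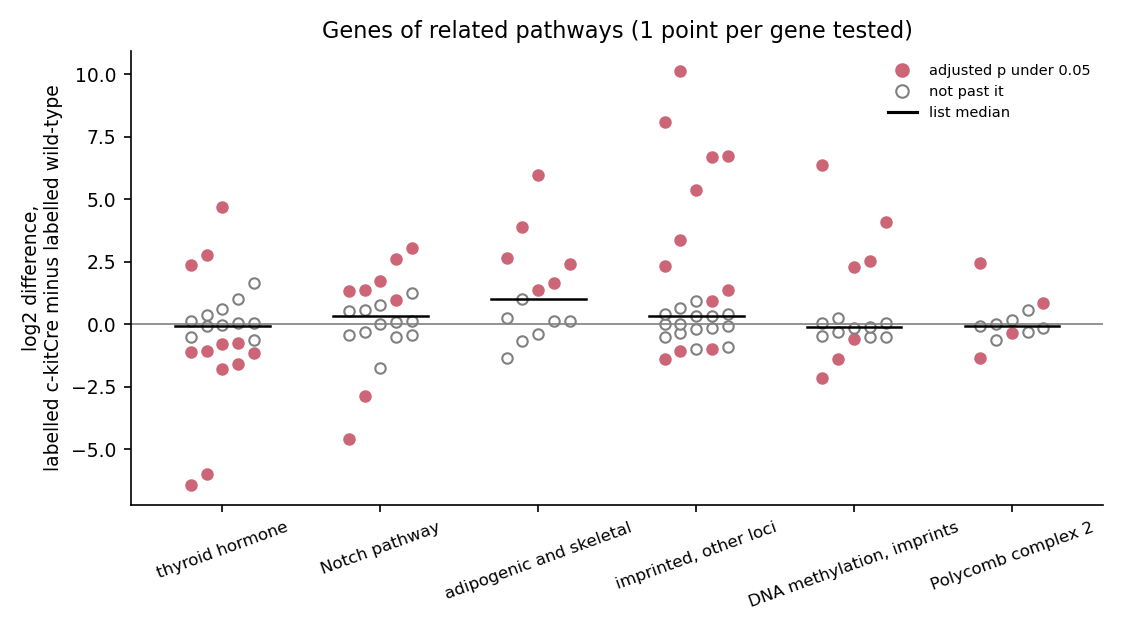
Log2 difference of each tested gene in 6 lists related to the domain, 1 point per gene, filled where the adjusted p is under 0.05, with a bar at the list median. The medians lie between -0.11 and 1.00.

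Markers of cell types that a heart culture could hold are given beside the domain. Over all genes tested, 16.2% rose and 19.3% fell, 35.5% in all. The share called was 37.5% of tested endothelial and of cardiomyocyte markers, 42.9% of mesothelial and 44.4% of pericyte and smooth muscle markers. It was 50% of glial and neural, 50% of fat cell and 60% of leukocyte markers. The endothelial, pericyte and smooth muscle, glial and neural, fat cell and leukocyte calls were all rises, to be set against 16.2%. No list was tested as a set. All 8 tested fibroblast markers rose, and the ninth, Tcf21, was at 0.758 scaled reads or less in every culture; their summed level was 31605 to 34362 in the wild-type-labelled cultures and 163816 to 233825 in the c-kitCre-labelled cultures. Of 9 pericyte and smooth muscle markers 4 rose, with sums of 1380 to 2392 and 4238 to 6768. Of 8 glial and neural markers 4 rose, with sums of 779 to 1025 and 10837 to 11731. Of 4 tested fat cell markers, out of 6, 2 rose, with sums of 51.3 to 84.5 and 150 to 154.

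Of 7 mesothelial markers 2 rose and 1 fell; the sum, 7157 to 8779 against 1108 to 1310, rests mainly on Msln. Of 8 cardiomyocyte markers 2 rose and 1 fell, with sums of 1516 to 3651 and 226 to 386 that rest mainly on Tnnt2, and Myh6, Myh7 and Actc1 had group means under 5 scaled reads. Endothelial sums were 584 to 958 and 1040 to 1259, and 3 of 8 markers rose. Of 5 tested leukocyte markers, out of 8, 3 rose, with sums of 179 to 189 and 330 to 605. Of the mast cell markers Cpa3, Mcpt4 and Ms4a2 were at 0 in every culture, and the sum, 34.0 to 109 against 1652 to 1786, rests on Kit. The part of cell composition in the values of the domain was not tested.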

How the data were processed

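Per the labels, RNA was depleted of ribosomal RNA and read in pairs, 100 bp each. DESeq (no version) and build mm10 appear in the submitters' processing notes; no aligner, annotation or strand setting is stated there. The deposited table, per its file headers, holds a raw and a normalized value for every culture. The deposited raw values are not whole numbers, the way in which library pairs were merged is unknown, and they were treated as a signal rather than tested as reads. The deposited normalized values are log2 values centred per gene. The constant was added back, since over 8369 high genes they equal log2 of scaled reads minus a constant (largest deviation 2.04e-06). For low genes the floor seems to apply per library, so a log2 value can exceed that of the culture. The authors' deposited table gives a signed fold for 4528 genes.

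The genotype test was limma 3.58.1 (R 4.3.3; eBayes with trend, two-sided, 3 cultures against 3, 4 residual degrees of freedom), with Benjamini-Hochberg adjustment over the 24150 genes tested and calls at an adjusted p under 0.05. Left out were 10024 genes averaging under 1 scaled read, or with all cultures at the floor. It called 8585 genes, of which 3914 rose and 4671 fell (c-kitCre against wild-type labels). The script was tested on simulated data. Coordinates are from GENCODE M21, which held 32874 of the gene IDs and lacked 1300. Promoters and miRNAs are from RefSeq tables, where 45 of the 51 hairpin rows matched by symbol. The members and lists were chosen with earlier results of these data known. The text names all domain genes, the flanking genes, the leading genes of each list by p, and genes discussed beside a domain gene. Flanking genes and list members not named with values are counted only, and some genes that this rule names are not reported here. Tables and figures used Python 3.11.15, pandas 2.3.3 and matplotlib 3.10.9.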

Additional observations from a re-analysis of the deposited data

How the results depend on the processing

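The count of 8585 genes was 6823 without the filter, 9641, 9456 and 9536 with 1, 0.1 and 5 added to the scaled reads, and 11375 and 9233 with centring on all and on high genes. With each culture left out in turn it ran from 5687, without wild-type culture 2, to 9062, without wild-type culture 1. Of the calls 45.6% were higher in the c-kitCre-labelled cultures; centring on the median of all genes gave 24.9% (2837 higher, 8538 lower) and shifted the median log2 difference from 0.04 to -0.31, and centring on high genes (mean 50 scaled reads or more) gave 59% (5447 higher, 3786 lower) and a median of 0.26. Whether culture numbers pair the cultures could not be settled. Same-numbered cultures correlated at 0.124, -0.00921 and 0.190 over 13456 genes, and 4 of 6 cultures matched best with their own number. With the number as a replicate block 8100 genes were called.

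Dlk1, Meg3, Rian and Begain kept their direction under every setting tried. Begain was 4.63, 5.36 and 3.34 with 1, 0.1 and 5 added to the scaled reads, 3.49 with quantile normalization, and 3.48 and 4.04 with centring on all and on high genes. Dlk1 was 5.81 and 4.51 with 0.1 and 5 added, and Meg3 6.47 with 5 added. AC152063.2 was 7.61 with 5 added, and 7.81 and 8.37 with the 2 centrings. Dio3 was 0.23 and 0.33 with 1 and 0.1 added, 0 with scaling to summed raw values, and -0.29 and 0.28 with the 2 centrings; it has no value where a mean of 10 scaled reads is required. Leaving out a culture gave 5.01 to 5.55 for Dlk1, 6.66 to 7.05 for Meg3, 8.02 to 8.23 for AC152063.2, 3.73 to 3.97 for Begain and 0.03 to 0.09 for Dio3. Of 352 list counts under alternatives, 297 stayed within 1.5 times and 55 did not. No tested gene with a call that the text names changed direction. The calls of Zfp57 and Ankrd9 were each lost in 6 settings, of Cinp in 9 and of Wdr20 in 13. Among the marker calls counted, those of Tbx18 and Fcgr1 were each lost in 13 settings, of Egfl7 and Tie1 each in 9, and of Col1a1 and Col3a1 each in 2. Depth limits Dio3 and the small RNA genes, which lie near or under the floor.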
